A study of Mus musculus with 32 samples.

Results

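The *Spry*, *Spred* and *Dusp* genes that restrain ERK signalling were followed across mouse embryonic stem cell (ESC) cultures with and without an inhibitor of MEK, the kinase that activates ERK. The 8 genes, *Spry1*, *Spry2*, *Spry4*, *Spred1*, *Spred2*, *Dusp4*, *Dusp5* and *Dusp6*, were chosen by name as known feedback inhibitors, with earlier results of these data known, and all 8 of the 51826 genes in the table passed the filter on low counts. Every library was examined, 32 in all from 11 cultures, of which 4 contained the MEK inhibitor (12 libraries) and 7 did not (20 libraries).

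Fibroblast growth factor receptors signal through RAS, RAF, MEK and ERK, and active ERK induces genes whose products switch the same pathway off. Sprouty proteins (Spry) and Spred proteins act upstream, between the receptor and RAF, while the dual-specificity phosphatases Dusp4, Dusp5 and Dusp6 remove phosphate from ERK itself, Dusp4 and Dusp5 in the nucleus and Dusp6 in the cytoplasm. In mouse ESCs ERK activity favours exit from naive pluripotency, and the transcripts of these inhibitors are widely read as a record of ERK output.

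All lines carry the Rex1-GFPd2 reporter, a destabilized GFP knocked into *Rex1* (*Zfp42*), and the unmutated reporter line is called RGd2. The medium N2B27 was used alone (N) or with the GSK3 inhibitor CHIR99021 (CH), and 2i is CH together with the MEK inhibitor PD0325901. RGd2 was sampled in 2i, after 5 passages in 2i (2i-p5), after 2 passages in CH (CH-p2) and in N2B27 for 16 h (N-16h) or 72 h (N-72h). Mutants made with CRISPR/Cas9 and pairs of guides were *Etv5* knockouts (Etv5-KO) and *Rbpj* knockouts (RbpJ-KO), each in 2i and at N-16h, *Etv5*/*Rbpj* double knockouts after 5 passages in CH (ER-dKO CH-p5) and *Etv5*/*Tcf3*/*Rbpj* triple knockouts after 5 passages in N2B27 (ETR-tKO N-p5), *Tcf3* being *Tcf7l1*. Cells of the RGd2, Etv5-KO and RbpJ-KO groups in 2i and at N-16h had been expanded in CH with LIF and moved to 2i shortly before sampling or withdrawal, so RGd2 2i and RGd2 2i-p5 differ in culture history. Each group has 3 libraries by the labels, except Etv5-KO N-16h with 2. The methods instead name RGd2 N-16h as the group that lost a library, and the labels were followed: *Etv5* stood at 124 to 128 FPKM in the 3 libraries labelled RGd2 N-16h and at 30.7 and 22.7 in those labelled Etv5-KO N-16h. Mutant libraries come from separate clonal lines, and RGd2 libraries from 2 cultures of the parental line and 1 of a clonal derivative. The p-values thus measure the spread among these lines and replicate cultures within a group. The change from 2i to N2B27 removes both inhibitors, whereas CH cultures keep the GSK3 inhibitor and lack only the MEK inhibitor.

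The genes lie on different chromosomes in GRCm38/mm10: *Spry1* on chromosome 3 (37639947 to 37644598), *Spry2* on 14 (105891949 to 105896819), *Spry4* on 18 (38586268 to 38601268), *Spred1* on 2 (117121374 to 117182279), *Spred2* on 11 (19924375 to 20024026), *Dusp4* on 8 (34807297 to 34819894), *Dusp5* on 19 (53529109 to 53542431) and *Dusp6* on 10 (99263231 to 99267489). RefSeq promoter sequence was at hand for 6 of them, without *Spry4* and *Dusp4*. The 250 bases before the RefSeq start are printed for *Spry2* and *Dusp6*, which were higher in every culture without MEK inhibitor, and for *Dusp5*, which was not. Capitals mark CArG boxes, the element bound by serum response factor.

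Spry2, GRCm38.p6 chr14:105896820-105897069, minus strand: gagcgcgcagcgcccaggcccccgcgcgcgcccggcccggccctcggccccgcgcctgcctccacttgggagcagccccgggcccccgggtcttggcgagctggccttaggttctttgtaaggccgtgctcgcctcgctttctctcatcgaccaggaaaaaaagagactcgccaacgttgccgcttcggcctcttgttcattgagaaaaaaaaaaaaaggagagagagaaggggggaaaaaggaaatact

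Dusp6, GRCm38.p6 chr10:99262981-99263230, plus strand: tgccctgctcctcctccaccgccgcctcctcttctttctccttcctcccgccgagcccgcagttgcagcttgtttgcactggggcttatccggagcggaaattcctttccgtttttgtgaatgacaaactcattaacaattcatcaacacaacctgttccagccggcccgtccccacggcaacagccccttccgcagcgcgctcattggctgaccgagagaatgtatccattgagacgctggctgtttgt

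Dusp5, GRCm38.p6 chr19:53528895-53529144, plus strand: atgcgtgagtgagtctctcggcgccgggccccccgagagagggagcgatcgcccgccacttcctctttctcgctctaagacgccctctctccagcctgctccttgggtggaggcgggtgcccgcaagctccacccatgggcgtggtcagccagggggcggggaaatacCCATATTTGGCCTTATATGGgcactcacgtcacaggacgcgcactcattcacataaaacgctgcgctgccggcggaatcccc

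The *Dusp5* promoter holds 2 CArG boxes side by side, from base −82 to −73 and from −72 to −63 relative to the start. Across all 32851 RefSeq windows of 300 bases (250 before and 50 after a start, both strands searched), 1.63% hold a CArG box, and none of the other 5 windows does. The ETS motif CCGGAA (14.9% of windows) occurs only in *Spry2*, from base 34 to 39 after the start. It is an extended form of the ETS core GGAA, and the core itself and its other forms were not searched. The RBPJ core TGGGAA (25.6% of windows) occurs only in *Spred2*, from base −59 to −54. Neither TGACGTCA (1.79% of windows) nor TGACTCA (5.2% of windows) is in any of the 6. A match describes these letters in this window only.

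Libraries had between 5986857 and 71439411 counts on genes (median 29940141), the lowest being RGd2 2i replicate 33. *Etv5* was lower in Etv5-KO, ER-dKO and ETR-tKO (mean FPKM of 14.97 to 26.7) than in RGd2 (92.9 to 135). *Rbpj* was lower in RbpJ-KO than in RGd2 in both media, and *Tcf7l1* was at most 1.10 FPKM in the ETR-tKO libraries. *Rbpj* in ER-dKO CH-p5 ranged up to 9.88 FPKM, against 12.3 in the lowest RGd2 CH-p2 library. The 7 naive markers *Zfp42*, *Klf2*, *Klf4*, *Esrrb*, *Tfcp2l1*, *Nanog* and *Tbx3* summed to between 513 and 1017 FPKM in all groups except RGd2 N-16h (354 to 366), RGd2 CH-p2 (274 to 307) and RGd2 N-72h (55.2 to 59.2). Primitive endoderm markers summed to at most 10.1 FPKM in any library. In such bulk samples fewer cells of a type and less RNA per cell cannot be told apart. FPKM, counts scaled by gene length and by the total count of the library, is used for levels, and normalized counts, scaled by ERCC spike-in transcripts, for fold changes.

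*Spry4*, *Spry2*, *Spred1*, *Dusp4* and *Dusp6* were higher in each of the 20 libraries without MEK inhibitor than in each of the 12 with it. Only 0.464% of the 13348 genes compared did so. The lowest library without the inhibitor against the highest with it stood at 5.03 against 0.749 FPKM for *Spry4*, 14.1 against 7.23 for *Dusp6*, 9.65 against 5.38 for *Spry2*, 8.49 against 5.03 for *Dusp4* and 13.4 against 10.4 for *Spred1*. *Spry1*, *Spred2* and *Dusp5* overlapped, with 8, 6 and 3 of the 20 libraries above every inhibited one. On average over the cultures all 8 genes were called higher (called means a Benjamini-Hochberg adjusted p under 0.05 by the quasi-likelihood test of edgeR where 1 of the groups reaches a mean of 1 FPKM), against 28.2% of all genes. The log2 fold changes were 6.67 for *Spry4*, 4.35 for *Dusp4*, 3.34 for *Dusp6*, 2.44 for *Spry2*, 1.35 for *Spred1*, 1.29 for *Spry1*, 0.50 for *Dusp5* and 0.39 for *Spred2*, with standard errors from 0.05 to 0.10. These errors and p-values come from the spread of libraries within a culture, not from that among the 7 or the 4 cultures. *Dusp5*, for example, ran from 1.38 in CH-p2 to −0.80 in ER-dKO CH-p5, each against 2i-p5. The median of the 8 was 1.89, and that of all genes tested 0.01.

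**Figure D1:**
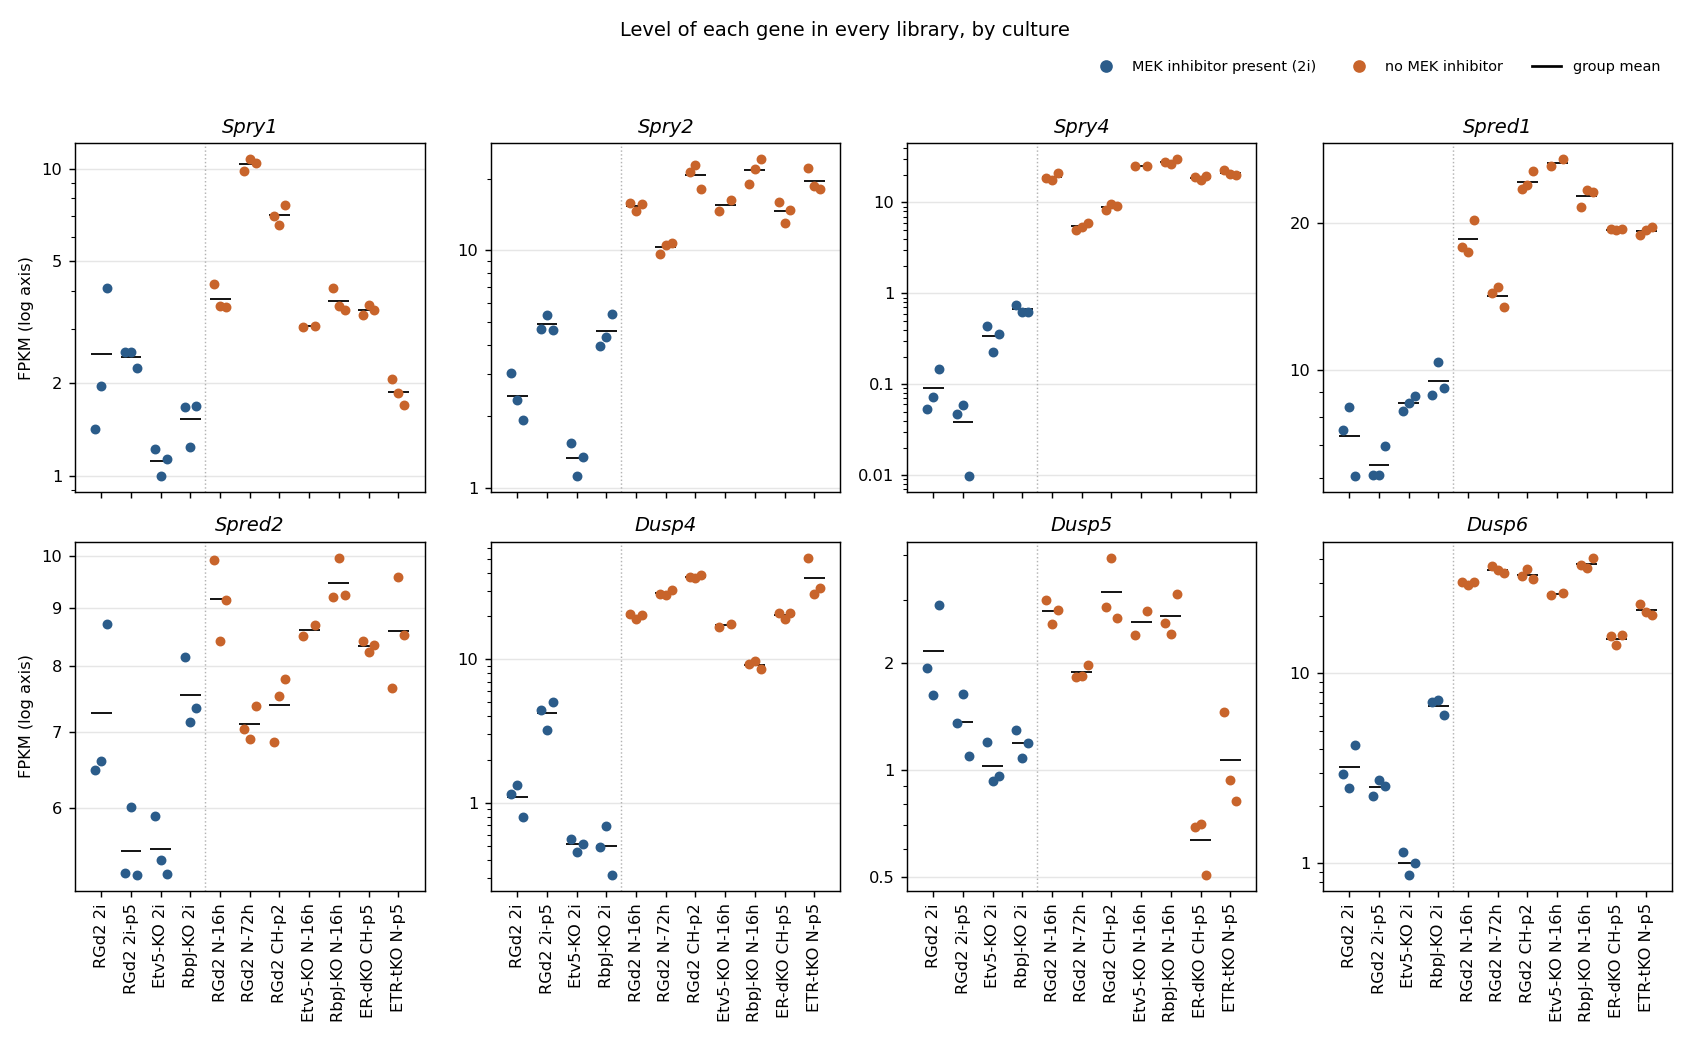
Level of each gene (FPKM, log axis, range set per panel) in each of 32 libraries (points) of 11 cultures, with the group mean as a bar, blue where the MEK inhibitor was present and orange where it was not. *Spry2*, *Spry4*, *Spred1*, *Dusp4* and *Dusp6* show no overlap between the colours, while *Spry1*, *Spred2* and *Dusp5* do.

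*Spry4* encodes a Sprouty protein and had the widest range of the 8. In RGd2 2i it stood at 0.0530, 0.0725 and 0.146 FPKM and in RGd2 2i-p5 at 0.0471, 0.0596 and 0.00981. At N-16h the RGd2 libraries had 18.6, 17.5 and 21.2 FPKM, at N-72h 5.03, 5.32 and 6.004, and in CH-p2 8.19, 9.73 and 9.06. Every uninhibited RGd2 library was thus far above every inhibited RGd2 library, and the 3 uninhibited RGd2 cultures did not overlap. The mutants without inhibitor were at the level of RGd2 N-16h or above it: Etv5-KO N-16h had 25.2 and 25.2, RbpJ-KO N-16h 27.7, 26.2 and 29.9, ER-dKO CH-p5 19.0, 17.5 and 19.7, and ETR-tKO N-p5 22.5, 20.4 and 19.9. Ordered by mean, RbpJ-KO N-16h, Etv5-KO N-16h and ETR-tKO N-p5 came first, then RGd2 N-16h and ER-dKO CH-p5, and of these neighbours ETR-tKO N-p5, RGd2 N-16h and ER-dKO CH-p5 overlapped.

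The *Spry4* change from RGd2 2i to N-16h was 7.81 on the log2 scale (SE 0.22, adjusted p = 6.63e-30 by edgeR's test). Against 2i-p5, the log2 fold change was 8.08 in CH-p2 (SE 0.30), 7.29 at N-72h (SE 0.32), 9.26 in ER-dKO CH-p5 (SE 0.25) and 9.39 in ETR-tKO N-p5 (SE 0.25). The size of these last changes rests on the 8 *Spry4* counts of the 3 RGd2 2i-p5 libraries (2, 5 and 1, exact Poisson 95% interval of the sum 3.45 to 15.8, counting error only). Without RGd2 2i-p5 replicate 3 they were 7.43, 6.63, 8.60 and 8.74, and without replicate 2 they were 8.84, 8.04, 10.01 and 10.15.

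*Spry2*, a Sprouty protein that is itself phosphorylated after growth factor stimulation, had 3.03, 2.34 and 1.92 FPKM in RGd2 2i and 4.66, 5.35 and 4.64 in 2i-p5. It had 15.8, 14.6 and 15.7 at N-16h, 9.65, 10.5 and 10.7 at N-72h and 21.3, 23.0 and 18.1 in CH-p2. Its highest RGd2 level was thus in CH and its lowest without MEK inhibitor at N-72h, with no overlap between any of the 5 RGd2 cultures. Among the mutants it was highest in RbpJ-KO N-16h (19.1, 22.0 and 24.2), which overlapped CH-p2, and it was 22.2, 18.6 and 18.2 in ETR-tKO N-p5. Etv5-KO N-16h (14.7 and 16.3) and ER-dKO CH-p5 (16.1, 13.004 and 14.8) overlapped RGd2 N-16h.

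*Spry1* behaved differently from both. Its level was highest at N-72h (9.83, 10.7 and 10.4 FPKM), then in CH-p2 (7.03, 6.54 and 7.59), and only 4.19, 3.57 and 3.55 at N-16h. In 2i-p5 it was 2.53, 2.52 and 2.25, and in RGd2 2i 1.42, 1.96 and 4.08, the last being the shallowest library, replicate 33, which reached the range of N-16h. In ETR-tKO N-p5, without either inhibitor, it was 2.06, 1.85 and 1.70, below every RGd2 2i-p5 library in FPKM. ER-dKO CH-p5 had 3.35, 3.60 and 3.45, below every CH-p2 library.

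Of the genes for Spred proteins, which bring the RAS inactivator neurofibromin to the membrane, *Spred1* followed the inhibitor and *Spred2* hardly did. *Spred1* had 7.52, 8.37 and 6.06 FPKM in RGd2 2i, 6.10, 6.09 and 6.97 in 2i-p5, 17.8, 17.5 and 20.2 at N-16h, 14.4, 14.8 and 13.4 at N-72h and 23.5, 23.9 and 25.5 in CH-p2. Over all uninhibited libraries it ran from 13.4 to 27.0, with Etv5-KO N-16h highest at 26.2 and 27.0. *Spred2* ran from 5.24 to 8.72 FPKM with the inhibitor and from 6.86 to 9.95 without it, and neighbours in its order of 11 cultures overlapped except in 2 places. Among RGd2 cultures it was highest at N-16h (9.92, 8.41 and 9.15) and lowest in 2i-p5 (5.26, 6.01 and 5.24).

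*Dusp6*, the cytoplasmic ERK phosphatase, had 2.97, 2.49 and 4.21 FPKM in RGd2 2i and 2.28, 2.76 and 2.56 in 2i-p5. It was 30.3, 29.4 and 30.5 at N-16h, 36.9, 34.9 and 33.9 at N-72h and 32.7, 35.6 and 31.3 in CH-p2. The uninhibited RGd2 libraries thus ran only from 29.4 to 36.9, whereas those of *Spry4* ran from 5.03 to 21.2. Both multiple mutants were lower, with 15.8, 14.1 and 16.0 in ER-dKO CH-p5 and 23.2, 21.0 and 20.4 in ETR-tKO N-p5, and RbpJ-KO N-16h was highest at 37.1, 35.97 and 40.6.

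*Dusp4*, a nuclear phosphatase, had 1.15, 1.33 and 0.792 FPKM in RGd2 2i and 4.46, 3.19 and 5.03 in 2i-p5. It was 20.6, 19.2 and 20.3 at N-16h, 28.4, 28.1 and 30.3 at N-72h and 37.4, 36.8 and 38.4 in CH-p2, so that no RGd2 culture overlapped another. The highest single value was in ETR-tKO N-p5 replicate 13, at 50.8 against 28.7 and 31.2 in the other lines. The labels name that line (ETc1)Rc53 and the others (Tc1)ERc2 and (Tc1)ERc10. RbpJ-KO N-16h was the lowest culture without inhibitor (9.26, 9.68 and 8.49).

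*Dusp5*, the other nuclear phosphatase, was low throughout, from 0.508 to 3.93 FPKM. It was highest in CH-p2 (2.86, 3.93 and 2.67), with N-16h of RGd2 (3.00, 2.56 and 2.82), of RbpJ-KO (2.58, 2.402 and 3.11) and of Etv5-KO (2.39 and 2.80) overlapping it. The inhibited RGd2 2i libraries, at 1.62 to 2.90, reached into the range of CH-p2 as well. Its lowest level was in a culture without MEK inhibitor, ER-dKO CH-p5 (0.692, 0.708 and 0.508), where every library lay below all libraries of the other cultures. ETR-tKO N-p5 had 1.45, 0.939 and 0.817, against 0.931 to 2.90 over the inhibited libraries.

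The comparison of RGd2 CH-p2 with RGd2 2i-p5 keeps the GSK3 inhibitor and removes the MEK inhibitor. All 8 genes were called higher, against 27.3% of all genes, and all 8 without overlap between libraries, against 36.8% of all genes. The log2 fold changes beside that of *Spry4* were 3.81 for *Dusp6* (SE 0.14), 3.27 for *Dusp4* (SE 0.16), 2.21 for *Spry2* (SE 0.17), 2.04 for *Spred1* (SE 0.12), 1.66 for *Spry1* (SE 0.17), 1.38 for *Dusp5* (SE 0.23) and 0.54 for *Spred2* (SE 0.13, adjusted p = 0.00117 by edgeR's test, the largest of the 8). The median of the 8 genes was 2.12 and that of all genes 0.17. In CH-p2 all 7 naive markers were lower and all 5 formative markers (*Fgf5*, *Pou3f1*, *Otx2*, *Dnmt3b* and *Sox3*) higher, the latter summing to 112 to 132 FPKM against 25.4 to 27.1 in 2i-p5. Mesendoderm markers summed to 70.4 to 73.9 FPKM against 8.86 to 10.1, most of it from *T*, with the GSK3 inhibitor present in both cultures. The part of these shifts in the result was not tested.

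At N-16h against RGd2 2i, 6 of the 8 genes were called higher and none lower, against 8.95% of all genes called higher, and 6 were called without each library in turn. Those without overlap between libraries were *Spry4*, *Dusp4* (log2 fold change 3.78, SE 0.19), *Dusp6* (3.10, SE 0.13), *Spry2* (2.28, SE 0.17) and *Spred1* (1.04, SE 0.11), 5 of 8 against 9.07% of all genes. *Spry1* was called at 0.70 (SE 0.16), with RGd2 2i replicate 33 inside the N-16h range. *Dusp5* (0.28, SE 0.18, adjusted p = 0.218 by edgeR's test) and *Spred2* (0.15, SE 0.12, adjusted p = 0.298 by the same test) were not called. Under the spike-in scaling the median of all genes was −0.24 here, and relative to it every one of the 8 was higher. With TMM scaling on gene counts, which moved the median of all genes by 0.25, *Dusp5* (0.54) and *Spred2* (0.39) were called as well. Naive markers summed to 354 to 366 FPKM against 852 to 910 in 2i, and formative markers to 113 to 151 against 36.8 to 44.3 (6 of 7 called lower and 5 of 5 called higher). Neural markers summed to 16.5 to 20.7 FPKM against 48.1 to 57.4, trophoblast markers to 1.15 to 1.32 against 10.5 to 14.7 and mesendoderm markers to 1.65 to 2.13 against 8.37 to 11.7. The part of these markers was not tested.

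At N-72h against RGd2 2i-p5, 7 of the 8 were called higher, against 34.1% of all genes, and *Dusp5* was not (0.53, SE 0.24, adjusted p = 0.0628 by edgeR's test). *Dusp6* rose by 3.81 on the log2 scale (SE 0.14), *Dusp4* by 2.82 (SE 0.16), *Spry1* by 2.14 (SE 0.15), *Spred1* by 1.18 (SE 0.12), *Spry2* by 1.11 (SE 0.17) and *Spred2* by 0.40 (SE 0.13). Without RGd2 2i-p5 replicate 3 the call of *Spred2* was lost (0.35, adjusted p = 0.0539 by edgeR's test), and without replicate 2 *Dusp5* was called (0.76, adjusted p = 0.0274 by the same test), as it was when only the groups compared were fitted (0.54, adjusted p = 0.0181 by the same test). Naive markers here summed to 55.2 to 59.2 FPKM and formative markers to 505 to 519 (7 of 7 called lower and 5 of 5 called higher). Neural markers summed to 77.0 to 92.4 FPKM against 23.4 to 25.8 in 2i-p5. Trophoblast markers summed to 0.618 to 0.737 FPKM against 16.8 to 23.7, and mesendoderm markers to 0.960 to 1.52 against 8.86 to 10.1. The part of these markers was not tested.

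**Figure D2:**
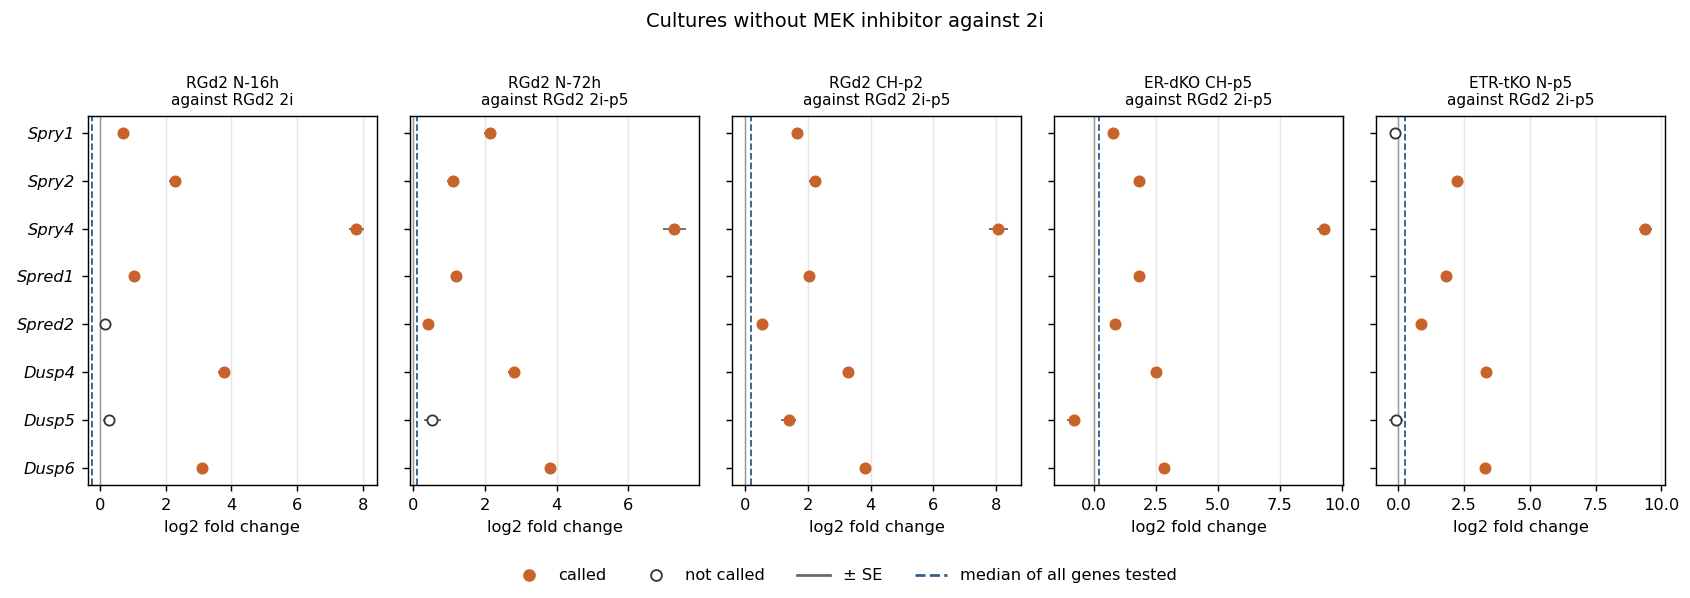
Log2 fold change (points, filled where called) with its standard error (bars) of the 8 genes in 5 comparisons of cultures without MEK inhibitor against 2i, the dashed line being the median of all genes tested and the axis range differing between panels. *Spry4* had the largest change in every panel, and *Dusp5* ranged from 1.38 in CH-p2 to −0.80 in ER-dKO CH-p5.

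From N-16h to N-72h the 8 genes split. *Spry1* (1.40, SE 0.12) and *Dusp4* (0.49, SE 0.12) were called higher at N-72h, against 32.5% of all genes, and *Spry4* (−1.84, SE 0.11), *Spry2* (−0.62, SE 0.14), *Dusp5* (−0.60, SE 0.18), *Spred1* (−0.43, SE 0.11) and *Spred2* (−0.41, SE 0.11) lower, against 31% of all genes. *Dusp6* was not called (0.18, SE 0.10, adjusted p = 0.118 by edgeR's test), but was when only the groups compared were fitted (0.19, adjusted p = 0.0259 by the same test). The 3 Sprouty genes therefore did not move together after the inhibitors were withdrawn: *Spry4* fell to 0.280 of its N-16h level while *Spry1* rose 2.65-fold. The median of all genes was 0.00 in this comparison under either scaling. The methods give CH with LIF followed by 2i as the culture of all lines before an assay, but N-72h is elsewhere described as following the withdrawal of CH and LIF, so a difference between the 2 times in what came before is not settled.

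RGd2 2i and RGd2 2i-p5 both contain the MEK inhibitor, and 2 of the genes were called higher in 2i-p5, *Dusp4* (1.45, SE 0.24, adjusted p = 1.09e-05 by edgeR's test) and *Spry2* (0.55, SE 0.21, adjusted p = 0.0355 by the same test), against 2.96% of all genes. Called lower were *Dusp5* (−0.85), *Spred2* (−0.66), *Spred1* (−0.57) and *Dusp6* (−0.53), against 53.3% of all genes, whose median was −0.39. With TMM scaling the median of all genes was −0.03 and only *Dusp4* (1.83), *Spry2* (0.92) and *Spred2* (−0.31) were called. *Spry2* lost its call without RGd2 2i replicate 32 (0.36, adjusted p = 0.243 by edgeR's test), 2i replicate 33 (0.47), 2i-p5 replicate 2 (0.44) or 2i-p5 replicate 3 (0.61), and with scaling by the total spike-in count (0.51, adjusted p = 0.0604 by edgeR's test). *Dusp5* lost its call without 2i replicate 31 (−0.67) or 2i-p5 replicate 3 (−0.64). *Dusp6* lost its call without 2i replicate 31 (−0.35), 2i-p5 replicate 1 (−0.46) or 2i-p5 replicate 3 (−0.51), and with the clonal line as block (−0.51, adjusted p = 0.0557 by edgeR's test). *Dusp4* kept its call without each library in turn. *Spry4* (−1.31, SE 0.86, adjusted p = 0.219 by edgeR's test) and *Spry1* (−0.03, SE 0.19, adjusted p = 0.919 by the same test, 0.32 with TMM scaling) were not called. Trophoblast markers, chiefly *Tfap2c*, summed to 16.8 to 23.7 FPKM in 2i-p5 and 10.5 to 14.7 in 2i, and neural markers to 23.4 to 25.8 and 48.1 to 57.4, their part being untested.

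The RGd2 and mutant responses to withdrawal were compared gene by gene. In Etv5-KO all 8 genes were called higher at N-16h than in 2i, against 35.3% of all genes: *Spry4* by 6.32 (SE 0.15), *Dusp4* by 5.21 (SE 0.21), *Dusp6* by 4.83 (SE 0.15), *Spry2* by 3.67 (SE 0.18), *Spred1* by 1.79 (SE 0.12), *Spry1* by 1.59 (SE 0.18), *Dusp5* by 1.48 (SE 0.20) and *Spred2* by 0.78 (SE 0.12). In RbpJ-KO 7 were called higher, against 12.4% of all genes: *Spry4* by 5.38 (SE 0.15), *Dusp4* by 4.16 (SE 0.24), *Dusp6* by 2.45 (SE 0.12), *Spry2* by 2.17 (SE 0.15), *Spry1* by 1.26 (SE 0.18), *Spred1* by 1.21 (SE 0.11) and *Dusp5* by 1.16 (SE 0.21). *Spred2* was not called in RbpJ-KO (0.29, SE 0.12, adjusted p = 0.0667 by edgeR's test), but was called with the clonal line as block (0.29, adjusted p = 0.0217 by the same test) and without RbpJ-KO 2i replicate 28 (0.35, adjusted p = 0.0410 by the same test), and also with TMM scaling.

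The difference between the responses was tested as a contrast of contrasts. In Etv5-KO the response exceeded that of RGd2 for 7 genes, against 45.4% of all genes called in that direction, and fell short for *Spry4* (−1.49, SE 0.46), against 0.621% of all genes. The excess was 1.73 for *Dusp6* (SE 0.21), 1.42 for *Dusp4* (SE 0.34), 1.40 for *Spry2* (SE 0.27), 1.199 for *Dusp5* (SE 0.27), 0.89 for *Spry1* (SE 0.24), 0.75 for *Spred1* (SE 0.16) and 0.63 for *Spred2* (SE 0.17). The median of all genes was 0.49, and with TMM scaling, where it was −0.01, only *Dusp6* (1.22), *Spry2* (0.87) and *Spry4* (−2.003) were called. The call of *Spry4* was lost without RGd2 2i replicate 31 (−1.35, adjusted p = 0.0601 by edgeR's test) or replicate 32 (−1.46, adjusted p = 0.0505 by the same test), and when only the groups compared were fitted (adjusted p = 0.0743 by the same test). In RbpJ-KO the response was smaller for *Spry4* (−2.43, SE 0.42) and *Dusp6* (−0.65, SE 0.18), 2 of 8 against 0.189% of all genes, and none was called larger, against 4.6% of all genes. The *Dusp6* difference lost its call without RGd2 2i replicate 32 (−0.44), RGd2 N-16h replicate 22 (−0.63), RbpJ-KO 2i replicate 28 (−0.61) or 29 (−0.61), or RbpJ-KO N-16h replicate 19 (−0.62) or 20 (−0.60), and when only the groups compared were fitted (adjusted p = 0.139 by edgeR's test), and *Dusp5* gained one without RGd2 2i replicate 32 (1.11, adjusted p = 0.0222 by edgeR's test). These comparisons share the RGd2 libraries. *Spry4* met the FPKM minimum in both only through N-16h. Its 2i means were 0.0904 FPKM in RGd2, 0.340 in Etv5-KO and 0.668 in RbpJ-KO, and its N-16h means 19.1, 25.2 and 27.9. The differences for *Spry4* thus rest on low 2i counts (9, 12 and 4 in RGd2), while its N-16h level was higher in both mutants.

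The levels in 2i differed as well. *Spry4* had 0.433, 0.230 and 0.357 FPKM in Etv5-KO 2i and 0.749, 0.628 and 0.627 in RbpJ-KO 2i, all above the highest RGd2 2i library at 0.146. In counts these were 170 in Etv5-KO (Poisson interval 145 to 198) and 224 in RbpJ-KO (196 to 255), against 25 in RGd2 (16.2 to 36.9). The log2 fold change was 3.09 in RbpJ-KO (SE 0.39, adjusted p = 5.16e-08 by edgeR's test) and 2.09 in Etv5-KO (SE 0.43, adjusted p = 0.000147 by the same test), neither a call because both levels are below 1 FPKM. At N-16h *Spry4* was also higher in both mutants, by 0.66 in RbpJ-KO (SE 0.10) and 0.61 in Etv5-KO (SE 0.10).

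In RbpJ-KO 2i, *Dusp6* (7.08, 7.23 and 6.01 FPKM) was the highest of the inhibited cultures and was called higher than in RGd2 2i (1.10, SE 0.15, adjusted p = 3.23e-07 by edgeR's test), as was *Spry2* (3.97, 4.33 and 5.38 FPKM, 0.71, SE 0.20), 2 of 8 against 5.48% of all genes. *Dusp4* (0.490, 0.693 and 0.316 FPKM, −1.40, SE 0.34) and *Dusp5* (1.30, 1.08 and 1.19 FPKM, −0.82, SE 0.22) were called lower, 2 of 8 against 7.44%. *Spry2* lost its call without RGd2 2i replicate 32 (0.52) or RbpJ-KO 2i replicate 30 (0.55). *Dusp4* lost it without RbpJ-KO 2i replicate 30 (−1.07, adjusted p = 0.0838 by edgeR's test) and, through the FPKM minimum, without RGd2 2i replicate 32 (−1.35). *Dusp5* lost it without RGd2 2i replicate 31 (−0.64) or RbpJ-KO 2i replicate 29 (−0.73), and *Spred1* gained one without RGd2 2i replicate 31 (0.38) and with TMM scaling (0.32). *Spry1* (1.67, 1.24 and 1.68 FPKM) was not called (−0.47, SE 0.19, adjusted p = 0.120 by edgeR's test), with no overlap of libraries in normalized count but overlap in FPKM, and was called lower by DESeq2 (−0.56, adjusted p = 0.0294). At N-16h *Dusp4* remained lower in RbpJ-KO (−1.02, SE 0.14, adjusted p = 1.91e-07 by edgeR's test), against 3.83% of all genes, while *Spry4*, *Spry2* (0.61, SE 0.13), *Dusp6* (0.45, SE 0.10) and *Spred1* (0.41, SE 0.10) were higher, against 20.4%. Of the 8, *Dusp4* was thus the gene called lower in RbpJ-KO in both media, with no overlap of libraries in either (7.68% and 7.58% of all genes were lower without overlap).

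In Etv5-KO 2i the phosphatases and *Spry1* and *Spry2* were all at the lower end of the series. *Dusp6* had 1.14, 0.872 and 1.01 FPKM, *Spry2* 1.54, 1.12 and 1.34, and *Spry1* 1.22, 0.996 and 1.13, each below every library of RGd2 2i. Called lower than RGd2 2i were *Dusp6* (−1.72, SE 0.18), *Dusp4* (−1.43, SE 0.31), *Spry2* (−1.18, SE 0.23), *Dusp5* (−1.09, SE 0.21), *Spry1* (−0.99, SE 0.19) and *Spred2* (−0.51, SE 0.12), 6 of 8 against 33.5% of all genes, whose median was −0.25, and none was called higher, against 6.41% of all genes. *Spred1* was not called (−0.02, SE 0.11, adjusted p = 0.924 by edgeR's test), but was called higher with TMM scaling (0.24). *Dusp4* lost its call, through the FPKM minimum, without RGd2 2i replicate 32 (−1.38). At N-16h only *Spred1* (0.73, SE 0.11) and *Spry4* were called, both higher, 2 of 8 against 33.3% of all genes, whose median was 0.24. For the other 6 genes the log2 fold change at N-16h was between −0.10 and 0.22, below that median, with libraries overlapping in normalized count. With TMM scaling *Spry2* (−0.02), *Spred2* (−0.12), *Dusp5* (−0.13) and *Dusp6* (−0.24, adjusted p = 0.0492 by edgeR's test, called lower) turned below 0. Naive markers summed to 984 to 998 FPKM in Etv5-KO 2i and 916 to 1017 in RbpJ-KO 2i, against 852 to 910 in RGd2 2i, and formative markers to 26.5 to 27.1 and 18.4 to 22.4 against 36.8 to 44.3. At N-16h the mutants stood further from RGd2: naive markers summed to 676 to 726 FPKM in Etv5-KO (7 of 7 called higher) and 513 to 564 in RbpJ-KO (5 of 7 called higher), against 354 to 366 in RGd2. Formative markers there summed to 72.6 to 80.3 and 60.6 to 63.9 FPKM against 113 to 151, with 4 of 5 called lower in each mutant. The part of these markers in the differences at N-16h, in 2i and between the responses was not tested.

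**Figure D3:**
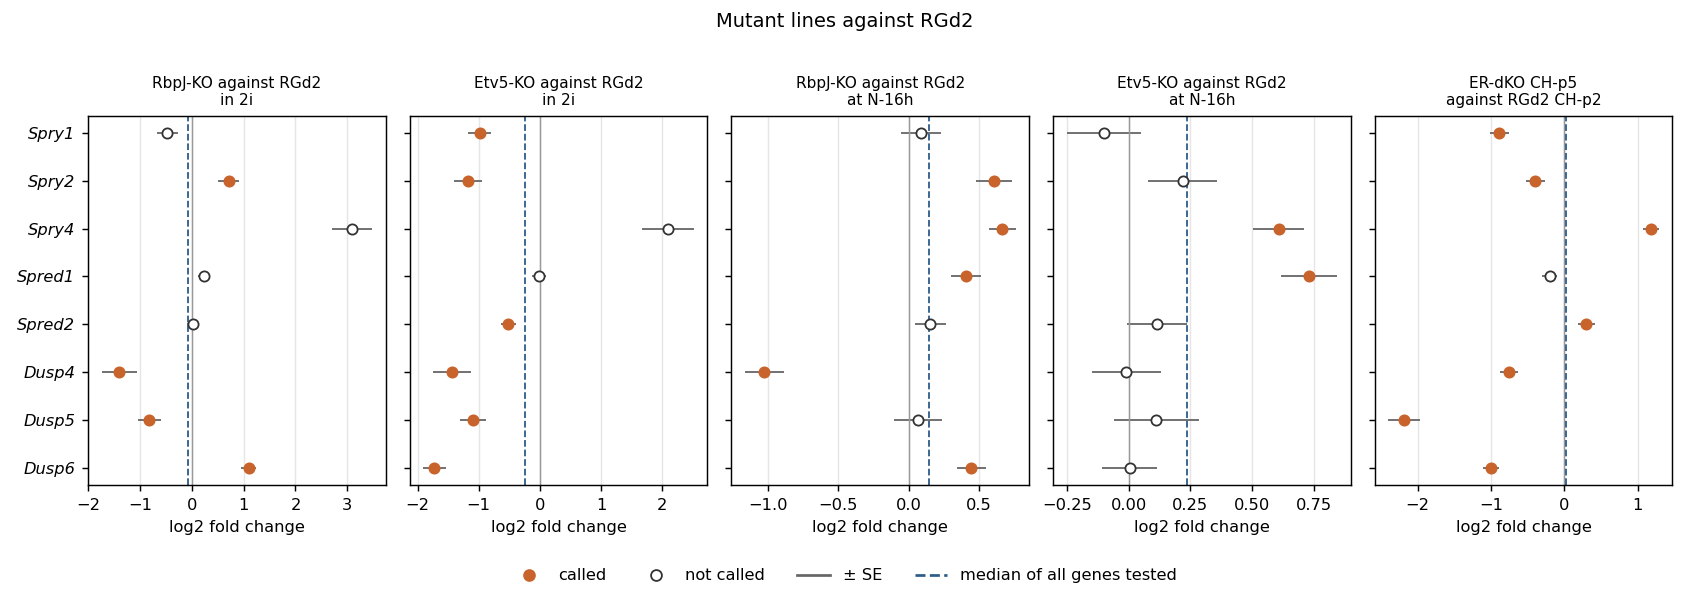
Log2 fold change (points, filled where called) with its standard error (bars) of the 8 genes in mutants against RGd2 in the same medium, the dashed line being the median of all genes tested and the axis range differing between panels. *Dusp4* lay at −1.40 and −1.02 in RbpJ-KO in 2i and at N-16h, while in Etv5-KO it was at −1.43 in 2i and −0.01 at N-16h.

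The multiple mutants had been passaged 5 times without MEK inhibitor. Against RGd2 2i-p5, 7 genes were called higher in ER-dKO CH-p5, against 35% of all genes, and *Dusp5* lower (−0.80, SE 0.26, adjusted p = 0.0150 by edgeR's test), against 8.88%. This call of *Dusp5* was lost without RGd2 2i-p5 replicate 2 (−0.58, adjusted p = 0.173 by edgeR's test). *Dusp6* was higher by 2.81 (SE 0.14), *Dusp4* by 2.51 (SE 0.16), *Spred1* by 1.84 (SE 0.12), *Spry2* by 1.81 (SE 0.16), *Spred2* by 0.84 (SE 0.12) and *Spry1* by 0.77 (SE 0.16). In ETR-tKO N-p5, 6 genes were called higher, against 38% of all genes: *Spry4*, *Dusp4* by 3.34 (SE 0.16), *Dusp6* by 3.28 (SE 0.14), *Spry2* by 2.22 (SE 0.16), *Spred1* by 1.81 (SE 0.12) and *Spred2* by 0.85 (SE 0.12). *Spry1* (−0.15, SE 0.18, adjusted p = 0.562 by edgeR's test) and *Dusp5* (−0.08, SE 0.25, adjusted p = 0.820 by the same test) were not, with their libraries overlapping in normalized count. Naive markers summed to 773 to 787 FPKM in ER-dKO CH-p5 and 754 to 817 in ETR-tKO N-p5, against 718 to 768 in RGd2 2i-p5. Formative markers summed to 26.3 to 28.5 and 59.2 to 88.3 FPKM, against 25.4 to 27.1. Neural markers summed to 21.9 to 24.4 and 67.4 to 70.7 FPKM, against 23.4 to 25.8. Mesendoderm markers summed to 14.6 to 16.4 and 6.69 to 11.4 FPKM, against 8.86 to 10.1. The part of these markers was not tested.

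Set against RGd2 in CH, ER-dKO CH-p5 had more *Spry4* (1.18, SE 0.11) and slightly more *Spred2* (0.30, SE 0.12), 2 of 8 against 29% of all genes, and less *Dusp5* (−2.18, SE 0.22), *Dusp6* (−1.0003, SE 0.11), *Spry1* (−0.89, SE 0.13), *Dusp4* (−0.76, SE 0.12) and *Spry2* (−0.40, SE 0.13), 5 of 8 against 21.9%. *Spry2* lost its call without CH-p2 replicate 4 (−0.34) or 5 (−0.34) or ER-dKO CH-p5 replicate 11 (−0.30), and *Spred2* without CH-p2 replicate 4 (0.29), 5 (0.29) or 6 (0.32) or ER-dKO CH-p5 replicate 10 (0.28) or 12 (0.28), and without the filter on low counts (adjusted p = 0.0802 by edgeR's test). The passages differ (5 against 2), as do naive markers, and these cannot be told apart from the genotype. Against RGd2 N-16h, ETR-tKO N-p5 had more *Dusp4* (1.01, SE 0.12), *Spry2* (0.49, SE 0.13) and *Spry4* (0.27, SE 0.10), 3 of 8 against 32.6% of all genes, and less *Dusp5* (−1.21, SE 0.19), *Spry1* (−0.88, SE 0.15) and *Dusp6* (−0.34, SE 0.10), 3 of 8 against 16.3%. *Spry4* lost its call there without RGd2 N-16h replicate 23 (0.21, adjusted p = 0.121 by edgeR's test), with TMM scaling (0.16, adjusted p = 0.114 by the same test) and without the filter on low counts (adjusted p = 0.0658 by the same test). Here 5 passages are set against 16 h, naive markers summed to 754 to 817 FPKM against 354 to 366 (6 of 7 called higher) and all 5 formative markers were called lower (59.2 to 88.3 against 113 to 151 FPKM), and these cannot be told apart from the genotype either. The phosphatases *Dusp4* and *Dusp5* thus moved apart in ETR-tKO N-p5, as they did in RGd2 from N-16h to N-72h (0.49 and −0.60). *Dusp5* was called lower in ER-dKO CH-p5 than in RGd2 CH-p2, and lower in ETR-tKO N-p5 than in RGd2 N-16h. ETR-tKO N-p5 was not tested against RGd2 N-72h.

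Other genes of the pathway were read from fixed lists over the 7 cultures without inhibitor against the 4 with it. Of 18 further feedback inhibitors and MAPK phosphatases tested, 10 were called higher, 3 lower and 5 not called, with a median of 0.23, where 28.2% of all genes were called higher and 29.1% lower. Of 16 other transcriptional targets of ERK, 10 were called higher and 2 lower, with a median of 1.32. This list includes *Etv5*, which is itself knocked out in Etv5-KO, ER-dKO and ETR-tKO. Of 18 members of the cascade itself 8 were called higher and 4 lower, with a median of 0.06, so that the components were on balance near the median of all genes (0.01). Of 8 FGF ligands and receptors 3 were called higher, a share near that of all genes, and 1 lower.

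**Figure D4:**
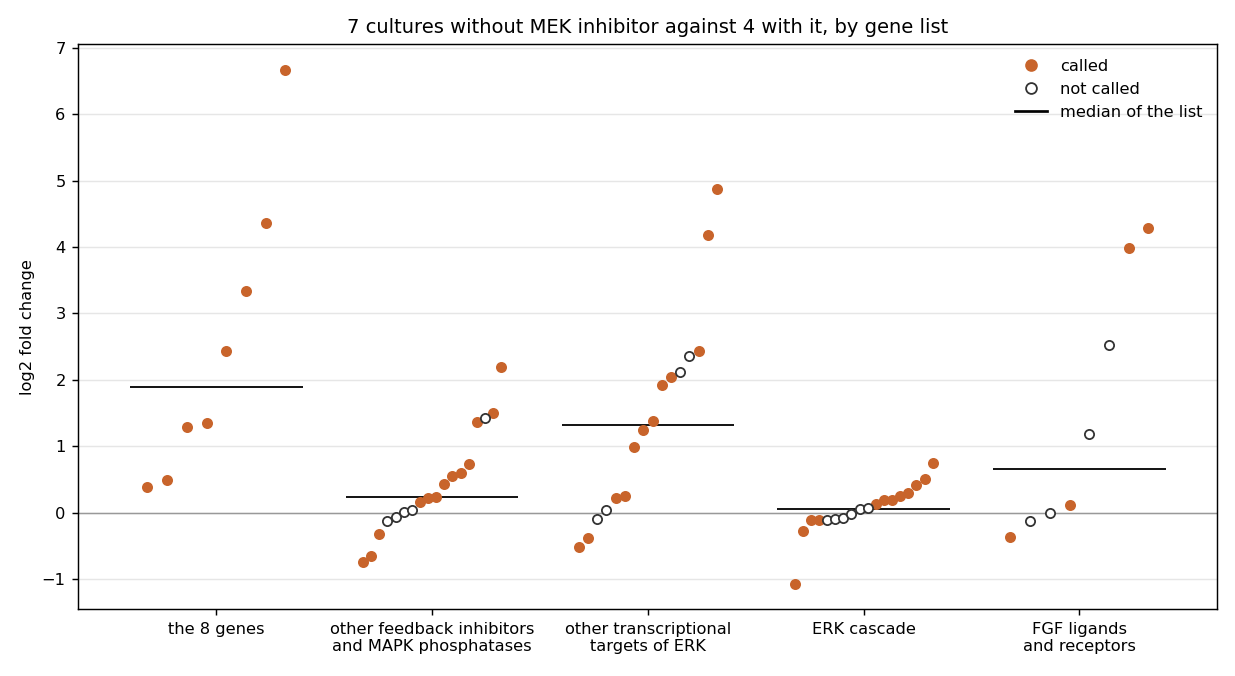
Log2 fold change of each gene tested (points, filled where called) between 7 cultures without MEK inhibitor and 4 with it, by gene list, with the median of the list as a bar. The medians were 1.89 for the 8 genes, 0.23 for the other feedback inhibitors and phosphatases, 1.32 for the other targets of ERK, 0.06 for the cascade and 0.65 for FGF ligands and receptors.

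Named by size of change in 3 comparisons, the further feedback inhibitors that rose included *Spred3*, the third Spred gene (log2 fold change 2.17 at N-16h against 2i, 3.37 in CH-p2 and 3.06 in ETR-tKO N-p5, each against 2i-p5), *Dusp9*, a phosphatase of ERK (1.37 at N-16h), and *Dusp3* (2.17 in CH-p2 and 1.42 in ETR-tKO N-p5). *Il17rd*, the Sef inhibitor, was called higher in CH-p2 (1.77) and lower in ETR-tKO N-p5 (−0.27). *Dusp14* (−1.89), *Dusp7* (−0.99) and *Dusp10* (−0.97) were lower at N-16h. Among the ERK targets, *Etv4* rose by 4.47, 5.64 and 7.69 in those comparisons and *Phlda1* by 2.75 at N-16h. *Egr1*, an immediate early gene, had at most 0.0241 FPKM in 2i-p5 (at most 1 count a library), 1.52 to 1.74 in CH-p2 and 3.58 to 5.97 in ETR-tKO N-p5, and was called higher in both. In the cascade *Braf* was higher in all 3 (1.03, 1.24 and 0.80) and *Ksr1*, a scaffold for RAF and MEK, lower (−0.80, −1.17 and −0.89). *Fgf15* rose by 3.93, 3.24 and 3.35, and *Fgf4* was lower in CH-p2 (−1.86) and higher in ETR-tKO N-p5 (0.67). As a check of the GSK3 inhibitor, *Sp5*, a target of Wnt signalling, went from 5.81 to 12.9 FPKM over RGd2 2i libraries to at most 0.0140 at N-16h (at most 1 count a library), and was higher in CH-p2 than in 2i-p5 by 1.15. Of the 8 Wnt targets listed, 6 were called lower and 0 higher at N-16h against 2i. In CH-p2 against 2i-p5 the list was mixed, with 4 called higher and 2 lower.

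Over the 11 culture means (log2 of the normalized count), 13324 genes were ranked by Pearson correlation with each of the 8, as a description in which points share libraries. *Spry4* ran closest to *Etv4* (r = 0.968), *Aldh2* (0.960) and *Spred1* (0.958), and *Spred1* to *Spry4*, *Aldh2* (0.948) and *Pdcd7* (0.944). *Dusp6* ran closest to *Ptpn3* (0.968), *Odc1* (0.960) and *Klk8* (0.950), and *Spry2* to *Slc39a14* (0.952), *Slc7a7* (0.951) and *Ptpn3* (0.945). *Dusp4* was nearest *Platr22* (0.950), *Ap5b1* (0.934) and *Fgf15* (0.920). The genes that overlapped between inhibited and uninhibited libraries had other neighbours: *Spry1* had *Pfkl* (0.949), *Bhlhb9* (0.947) and *Itgb1* (0.935), *Spred2* had *Strap* (0.982), *Gm48054* (0.956) and *Zkscan17* (0.950), and *Dusp5* had *Ppp2r3c* (0.961), *Mettl13* (0.958) and *Dusp9* (0.948).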

How the data were processed

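RNA was depleted of ribosomal RNA, mixed with ERCC spike-ins and made into strand-specific libraries. Adapters were cut by the authors with Trim Galore. Alignment used TopHat2, with GRCm38/mm10, the spike-in sequences and Gencode gene models as reference, and the raw count of unique primary matches per gene and per spike-in, from featureCounts, was deposited, neither normalized nor pooled. Each library was placed in its group by its label. There were 51826 gene rows and 92 spike-in rows, and 193 gene identifiers, with 0.02589% of the counts, matched no symbol.

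FPKM and log2 values were computed here from the deposited counts and gene lengths. Size factors were median ratios of the 52 spike-ins detected in all libraries. The 18892 genes kept by filterByExpr were tested in R 4.3.3 with edgeR 4.0.16 (glmQLFit, glmQLFTest), with 1 coefficient per culture over all 32 libraries, two-sided, and p-values were adjusted after Benjamini and Hochberg across these genes. Percentages of all genes called refer to those reaching a mean FPKM of 1 in a group compared. Differences of responses were contrasts of contrasts. Promoters are RefSeq's (GRCm38.p6), whose starts lie within 303 bases of the Gencode gene starts. Alternatives were TMM and median-of-ratios size factors on gene counts, the total spike-in count, DESeq2 1.42.0, other filters, only the groups compared, a fold of at least 1.5, leaving out each library, and the clonal line as block. Lines shared between conditions are known from the clonal identifiers in the labels, and the deviations of libraries of the same line correlated by 0.0068 to 0.177. The test was checked on simulated counts with the same dispersion for every gene, a simpler setting than these libraries. Replicates differed by more than counting noise (chi-square per gene of 5.28 to 28.5). Beside the 8 genes, each other list gave by name at most 3 called genes a direction, those changed most in N-16h against 2i, CH-p2 against 2i-p5 and ETR-tKO N-p5 against 2i-p5. The genes and lists were chosen with earlier results of these data known. Plots were made in matplotlib 3.10.9 (Python 3.11.15).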

Additional observations from a re-analysis of the deposited data

Results flagged for a closer look

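Between genotypes, the change from 2i to N-16h differed for 10 pairs of gene and mutant in the test of the difference itself (the quasi-likelihood test of edgeR, adjusted after Benjamini and Hochberg over every gene tested). For RbpJ-KO against RGd2 the difference was −2.43 for *Spry4* (adjusted p = 0.000147 by edgeR's test) and −0.65 for *Dusp6* (adjusted p = 0.0289 by the same test). For Etv5-KO it was −1.49 for *Spry4* (adjusted p = 0.0109 by edgeR's test) and, in the other direction, 1.73 for *Dusp6*, 1.42 for *Dusp4*, 1.40 for *Spry2*, 1.20 for *Dusp5*, 0.89 for *Spry1*, 0.75 for *Spred1* and 0.63 for *Spred2*, with edgeR's adjusted p from 5.74e-08 to 0.00514. In that direction 45.4% of all genes were called for Etv5-KO, and the median of all genes was 0.49. With TMM scaling 3 of the 8 calls for Etv5-KO were kept, those of *Dusp6*, *Spry2* and *Spry4*. In the direction of *Spry4* 0.621% of all genes were called for Etv5-KO and 0.189% for RbpJ-KO. *Spry4* met the FPKM minimum only through N-16h, where its level was higher in both mutants than in RGd2. Groups of 2 or 3 libraries were not searched for single libraries far from the rest.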

How the results depend on the processing

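Leaving out each library in turn kept the direction and the side of the threshold in 1084 of the recalculated log2 fold changes, and the other alternatives in 1255, and no change that had been called turned its direction in either. Of changes that had been called, 35 and 43 were no longer called, and 4 and 17 others became called without a change of sign. Changes that turned their sign are not in these counts. Among them *Spred1* in 2i and *Dusp6* at N-16h, in Etv5-KO against RGd2, became called with TMM. Between RGd2 2i-p5 and 2i the 6 genes called became 3 with TMM, 3 with median-of-ratios scaling, 3 with a fold of at least 1.5 and 3 to 5 without each library. For the difference of the Etv5-KO and RGd2 responses the 8 called became 3 under either scaling on gene counts. For RbpJ-KO, 2 became 1 with only the groups compared and 1 to 2 without each library. RbpJ-KO against RGd2 in 2i had 4 genes called and 2 to 4 without each library. With a fold of at least 1.5, N-72h against N-16h had 4 called, RbpJ-KO against RGd2 at N-16h 3 and ETR-tKO N-p5 against RGd2 N-16h 3. These settings use a stricter threshold, fewer samples or a scaling that shifts the median of all genes. Why the counts changed was not tested. *Spry4* in 2i is limited by depth.

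Values of genes not called that changed sign with TMM and median-of-ratios scaling, in that order, were as follows. For 2i-p5 against 2i, *Spry1* was 0.32 and 0.33. For RbpJ-KO against RGd2 at N-16h, *Spry1* was −0.065 and −0.059, *Dusp5* −0.089 and −0.082, and *Spred2* −0.0014 with TMM. For Etv5-KO against RGd2, *Spred1* in 2i was 0.24 and 0.21 (0.024 with DESeq2 and 0.022 with only the groups compared), and at N-16h *Spry2* was −0.023 and −0.024, *Spred2* −0.12 and −0.13, *Dusp5* −0.13 and −0.13, and *Dusp6* −0.24 and −0.24 (−0.0016 with only the groups compared). For ETR-tKO N-p5 against N-16h, *Spred2* was −0.068 and −0.089. For the RbpJ-KO response, *Spred1* was −0.077 and −0.059 and *Spred2* −0.096 and −0.077. With total spike-in counts *Spred2* was −0.027 in RbpJ-KO against RGd2 in 2i, and *Dusp4* 0.0070 in Etv5-KO against RGd2 at N-16h. Without each library in turn, ranges that crossed 0 were −0.11 to 0.086 for *Dusp4*, −0.075 to 0.27 for *Dusp5* and −0.073 to 0.079 for *Dusp6* in Etv5-KO against RGd2 at N-16h, −0.15 to 0.12 for *Spred1* in Etv5-KO against RGd2 in 2i, −0.36 to 0.15 for *Dusp5* in ETR-tKO N-p5 against 2i-p5, −0.066 to 0.17 for *Spred2* in ETR-tKO N-p5 against N-16h, −0.071 to 0.14 for *Dusp5* in RbpJ-KO against RGd2 at N-16h, −0.070 to 0.10 for *Spred2* in RbpJ-KO against RGd2 in 2i, −0.19 to 0.12 for *Spry1* in 2i-p5 against 2i, and −0.45 to 0.085 for *Spry2* in the RbpJ-KO response.

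With the clonal line as replicate block, *Spred2* in RbpJ-KO at N-16h against 2i was called (0.29) and *Dusp6* in 2i-p5 against 2i was not (−0.51), and the block changed no other call.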

Other observations

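*Spred3*, the remaining Spred gene, was not among the 8 genes but was higher in every library without MEK inhibitor than in every library with it (log2 fold change 2.20, SE 0.10, called by edgeR's test). Its group means were 0.458 to 0.924 FPKM in the 4 inhibited cultures and 1.66 in ER-dKO CH-p5, 2.74 in RbpJ-KO N-16h, 2.77 in Etv5-KO N-16h, 3.30 in ETR-tKO N-p5, 3.57 in RGd2 N-16h, 4.40 in CH-p2 and 5.97 in N-72h. *Spred3* was thus highest at N-72h, where *Spred1* was lowest among the uninhibited cultures.

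*Dusp9*, a phosphatase of ERK, was expressed in 2i as well. Its group means were 21.5 FPKM in RGd2 2i and 17.9 in 2i-p5, 65.6 at RGd2 N-16h, 38.4 in CH-p2 and 19.8 at N-72h. In the mutants *Dusp9* had 50.9 FPKM in RbpJ-KO N-16h and 49.5 in Etv5-KO N-16h, but 12.4 in ETR-tKO N-p5 and 6.66 in ER-dKO CH-p5, the latter below each of the inhibited cultures. Like *Dusp5*, it was lowest in ER-dKO CH-p5.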
